A study of Rattus norvegicus with 36 samples.

Results

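A set of 27 genes, of 29516 in the files, was raised in cultured rat pineal glands by dibutyryl cyclic AMP (DBcAMP) and stayed under a set limit with norepinephrine (NE). The genes were chosen from the RNA-Seq counts by 4 limits, on CPM (counts scaled to a library total of 1000000 read-pairs) and on group medians of 3 libraries. The log2 ratio of DBcAMP to Untreated glands, with 0.5 CPM added to each median, was at least 1.5, and that of NE to Untreated glands was under 0.5. The DBcAMP median was at least 1 CPM, and the log2 ratio of night to day in unoperated glands was under 1 in either direction. Of 13257 genes at or above 1 CPM with DBcAMP, 250 met the DBcAMP ratio, 32 of these were also under the NE limit, and the Control limit left out 5 of them. Because these ratios chose the genes, they are given below as a description and carry no test. The genes are called members here and are numbered from 1 to 27 by falling DBcAMP ratio, since the files list Ensembl identifiers without gene names.

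The study used Sprague Dawley rats kept in a 14:10 light:dark cycle and measured 36 libraries of total RNA depleted of ribosomal RNA. For organ culture, pineal glands of female rats 2 to 3 months old were incubated for 48 h and then either left Untreated or treated for 6 h with 1 µM NE or 500 µM DBcAMP (3 libraries each). For the in vivo groups, male and female pups received no surgery (Control), sham surgery (Sham), decentralization of both superior cervical ganglia (DCN) or removal of both ganglia (SCGX) on postnatal day 5, and glands were taken on day 40 at mid-day (ZT7) or midnight (ZT19), with 3 libraries in each of the 8 groups. The third experiment held 1 library each of pineal glands at ZT7, pineal glands at ZT19, and an equal mixture of RNA from 15 other tissues at ZT7. DCN leaves the ganglion and its nerve fibres in place but cuts the input from the spinal cord, whereas SCGX removes the sympathetic nerves of the gland. Each in vivo and culture library was a pool of glands, so p-values measure the spread between pools, and the 3 experiments were sequenced as separate pools of libraries. In pooled tissue, fewer cells of a type and less RNA per cell cannot be told apart.

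In the pineal gland, NE released at night by sympathetic fibres acts on beta-1 and alpha-1b adrenergic receptors of the pinealocyte. This raises cyclic AMP, which activates protein kinase A and, through phosphorylation of the transcription factor CREB, transcription at cyclic AMP response elements. DBcAMP is a membrane-permeable analog of cyclic AMP that enters cells without a receptor, so it can reach pinealocytes and the other cell types of the gland alike. Which pathway each member belongs to, and which cells express it, were not analysed here.

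The culture libraries held from 12556861 to 18524435 read-pairs on genes, the in vivo libraries from 12985072 to 18504240 and those of the third experiment from 28836161 to 38574186. In vivo, 3 libraries stood apart from the others of their groups. Of 13257 genes, 154 were over 4-fold above both other libraries in Sham night replicate 3, 81 in DCN day replicate 1 and 50 in Sham day replicate 3, against 0 to 39 in the other in vivo libraries. Sham day replicate 3 held 3 members at such levels, members 9, 10 and 14. For tested in vivo values that rest on these libraries, results without them are also given. The 3 libraries were chosen after the data had been seen. The fits that leave them out together were added then, whereas leaving out single libraries was planned. The next highest library, with 39 such genes, was Control night replicate 1.

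The summed level of the members separated the culture groups. It was 91.7, 95.4 and 92.8 CPM in the Untreated libraries, 112.6, 130.0 and 110.5 CPM with NE, and 443, 402 and 400.5 CPM with DBcAMP. The groups did not overlap, and the DBcAMP libraries were far above both others. Since the rule chose the members on these contrasts, nothing is read from the separation, here or for single members. Member 16 alone accounted for the most read-pairs, with 127, 121 and 114 CPM in the DBcAMP libraries, against 34.0, 33.6 and 34.7 CPM in Untreated and 45.1, 45.1 and 49.9 CPM in NE libraries. The 3 groups of libraries did not overlap for this member, whose log2 ratio was 1.82 with DBcAMP and 0.40 with NE.

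**Figure D1:**
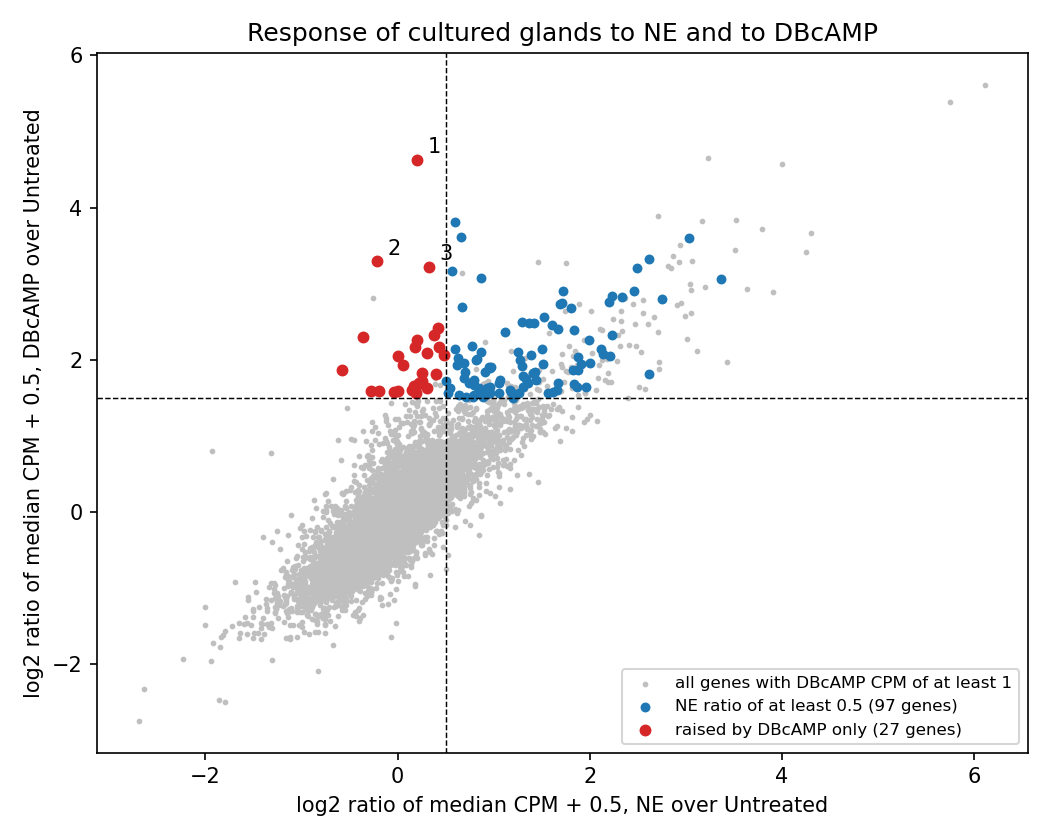
Log2 ratio of median CPM + 0.5 over Untreated with NE (horizontal) and with DBcAMP (vertical) for 13257 genes at or above 1 CPM with DBcAMP; red, the 27 members; blue, 97 genes over the same DBcAMP limit with an NE ratio of at least 0.5 and within the Control limit; dashed lines, the limits of 1.5 and 0.5. The members lie in the upper left, with member 1 at 4.63 on the vertical axis and members 2 and 3 at 3.30 and 3.23.

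Members 1, 2 and 3 stood above the rest in the size of the DBcAMP ratio. Member 1, ENSRNOG00000043031, had 1, 2 and 6 read-pairs in the Untreated libraries, 3, 3 and 13 with NE, and 193, 181 and 201 with DBcAMP. The DBcAMP libraries agreed closely, with a coefficient of variation of 6.84%, and each lay far above all 6 others. The log2 ratio was 4.63 with DBcAMP and 0.20 with NE. Member 2, ENSRNOG00000015082, had 11, 11 and 13 read-pairs in Untreated, 7, 23 and 8 in NE, and 279, 157 and 137 in DBcAMP libraries, with log2 ratios of 3.30 and -0.22. Its DBcAMP libraries varied more, at 43.7%, and NE replicate 2 was above the Untreated libraries while the other NE libraries were below them. Member 3 had 4, 3 and 3 read-pairs in Untreated, 7, 5 and 2 in NE, and 82, 48 and 80 in DBcAMP libraries, with log2 ratios of 3.23 and 0.33.

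The other 24 members had log2 ratios between 1.57 and 2.42 with DBcAMP, and the median of all 27 was 1.86, against -0.16 over the 13257 genes. The members just inside the limit had ratios of 1.57, 1.58 and 1.59, and the genes just outside had 1.46, 1.46 and 1.46. In 26 of the 27 members every DBcAMP library was above every Untreated library, a pattern found in 17.9% of the 13257 genes. The 26 members also had every DBcAMP library above every NE library, as did 10.4% of the genes. Since the rule set these contrasts, nothing is read from either count. The exception in both was member 20, with 1, 93 and 17 read-pairs in the DBcAMP libraries, 1, 3 and 1 in Untreated and 1, 23 and 2 in NE. DBcAMP replicate 1 was at the level of the Untreated libraries for this member, and replicate 2 was over 4-fold above the other libraries of both treatments except NE replicate 2.

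Among the members with smaller ratios, some were close to undetected in culture without DBcAMP. Member 7 had 1, 0 and 0 read-pairs in Untreated, 0, 1 and 2 in NE and 25, 20 and 25 in DBcAMP libraries. Member 9 had 1, 0 and 0 in Untreated, 1, 1 and 0 in NE and 22, 29 and 13 in DBcAMP libraries. Member 25 had 1, 0 and 2 in Untreated, 0, 2 and 1 in NE and 26, 16 and 16 in DBcAMP libraries. In each of these the 6 libraries without DBcAMP held at most 2 read-pairs, so the added 0.5 CPM sets much of the ratio (2.26, 2.17 and 1.59). Member 24 was the least abundant per length, with 1, 1 and 4 read-pairs in Untreated, 6, 0 and 0 in NE and 7, 17 and 16 in DBcAMP libraries.

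Others were well detected in every culture library. Member 10 had 160, 152 and 146 read-pairs in Untreated, 166, 198 and 180 in NE and 653, 574 and 601 in DBcAMP libraries, with a log2 ratio of 2.10. Member 23 had 109, 98 and 155 in Untreated, 94, 97 and 86 in NE and 321, 321 and 296 in DBcAMP libraries, with a log2 ratio of 1.60. Both were tight within DBcAMP, with coefficients of variation of 9.84% and 6.43%. Member 12 had 71, 79 and 72 read-pairs in Untreated and 278, 212 and 293 in DBcAMP libraries, but 94, 65 and 18 in NE, where replicate 3 was low. Member 13 was low but even, with 6, 4 and 6 read-pairs in Untreated, 5, 5 and 5 in NE and 36, 35 and 35 in DBcAMP libraries.

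The spread between DBcAMP libraries was under 20% of the mean in 14 members. Members 6 and 14 were low in DBcAMP replicate 1, with 108, 235 and 188 and with 70, 203 and 152 read-pairs in the 3 libraries. For member 6 the Untreated libraries held 35, 37 and 63 read-pairs and the NE libraries 33, 24 and 22, so that replicate 1 still exceeded all 6. For member 14 the Untreated libraries held 15, 50 and 52 and the NE libraries 26, 72 and 24 read-pairs. On the CPM scale DBcAMP replicate 1, at 5.57, lay just above NE replicate 2, at 5.53.

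The NE ratio of the members was above 0 in 21 and below 0 in 6, with a median of 0.20 and a range of -0.58 to 0.48, whereas the median over the 13257 genes was -0.11. Every NE library was above every Untreated library in 4 members (14.8% of the genes), and every Untreated library was above every NE library in 1 member (35.4%). The former were members 4, 5, 8 and 16, and the latter was member 6. Member 5 had 67, 80 and 101 read-pairs in Untreated, 108, 116 and 101 in NE and 366, 354 and 385 in DBcAMP libraries, and its log2 ratios were 0.38 with NE and 2.33 with DBcAMP. Each NE library was above each Untreated library of this member on the CPM scale, at 7.11, 8.90 and 7.20 against 4.68, 5.41 and 5.45. The NE limit thus left members with a small difference inside the set: the 3 members nearest to it had ratios of 0.48, 0.43 and 0.42, and the 3 genes just outside had 0.50, 0.52 and 0.55.

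**Figure D2:**
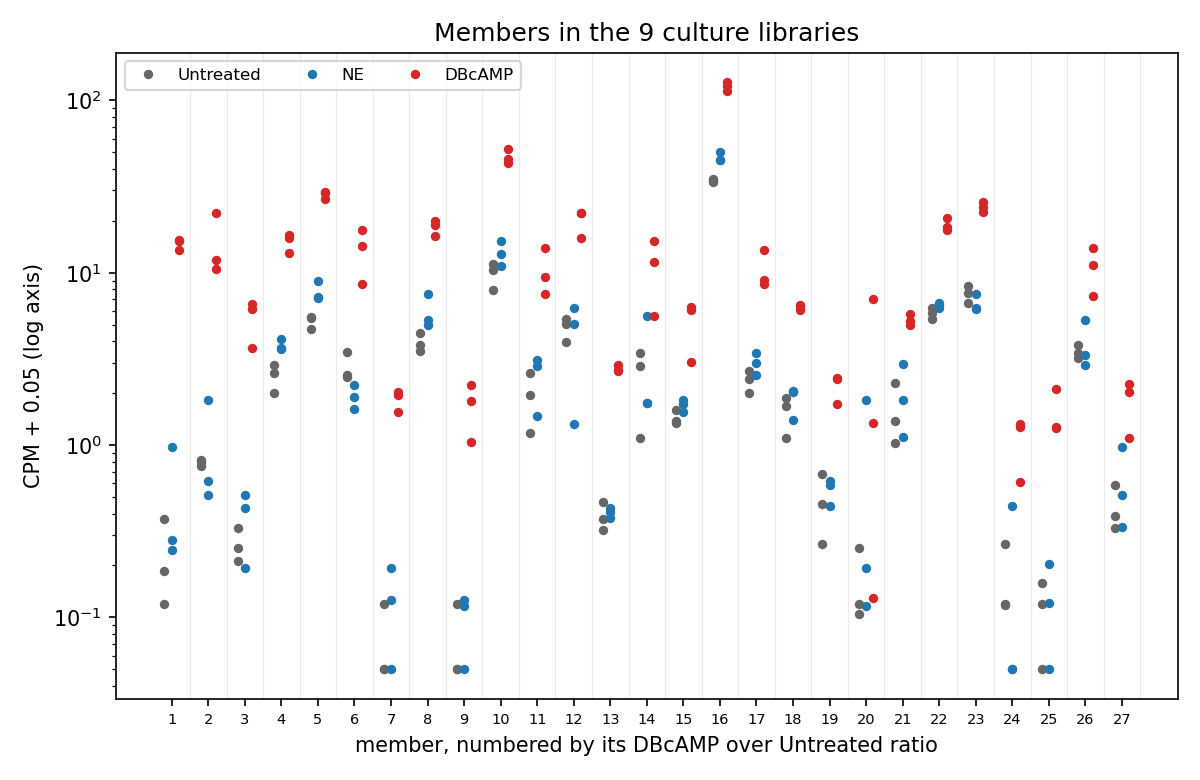
CPM + 0.05 on a log axis for each of the 27 members in the 9 culture libraries, 1 point per library (grey, Untreated; blue, NE; red, DBcAMP). The DBcAMP points lie above the other points in every column but that of member 20, where DBcAMP replicate 1 lies among the Untreated points.

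The choice of members depended on single libraries. With each DBcAMP library left out in turn, 30, 31 and 30 genes met the rule, and 20, 21 and 22 of them reached the limit of 1.5 in the library left out. With each NE library left out, 26, 33 and 22 genes met it, and 21, 17 and 18 of them were under the limit of 0.5 in that library. NE replicate 2 was the library that most often went against the choice made from the others.

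Compared per length of gene, the members were of moderate to low abundance. The median RPKM (CPM per kilobase of gene) with DBcAMP ranged from 0.391 in member 24 to 69.4 in member 16, with a median over members of 6.36, against 11.97 over the 13257 genes and 15.7 over the 97 genes raised by both treatments. Member 17, the shortest at 393 bases, had the second highest value, with 23.0 RPKM. Members 10, 23 and 26 followed with 20.5, 18.8 and 17.6 RPKM. The other end of the scale held members 20 and 27, with 0.706 and 0.496 RPKM, whose medians rest on 17 and 25 read-pairs.

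Many members were hardly detected in glands taken from the animal. In 11 of the 27 members the level was under 1 CPM in all 24 in vivo libraries, as in 0.754% of the 13257 genes. The same held for 12 of the 97 genes at or above the NE limit, whose DBcAMP median was higher (21.8 CPM, against 9.45 CPM for the members and 21.4 CPM for all genes). Only members 8, 10, 16, 22 and 23 reached 1 CPM in all 24 libraries, which 89.6% of the genes did. The members were also low in culture without DBcAMP, with an Untreated median of 1.62 CPM against 24.9 CPM for all genes. The rule chose them for a rise over Untreated glands and used the Control libraries, so nothing is read from these shares. Member 11 had a single read-pair over the 24 in vivo libraries together, among 366719630 counted on genes. The same member had 16, 38 and 35 read-pairs in Untreated, 43, 40 and 20 in NE and 175, 126 and 98 in DBcAMP libraries. Members 17 and 18 had 13 and 12 read-pairs in vivo, and 34, 39 and 36 and 15, 24 and 34 in the Untreated libraries. Member 5 had 43 read-pairs in vivo, of which 23 were in DCN day replicate 1 and 7 in Sham night replicate 3.

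Levels in Untreated culture lay above those in vivo for many members before any treatment was given. Every Untreated library was above every Control day library in 16 members (29.6% of the 13257 genes) and above every Sham day library in 14 (27.8%). The reverse was found in 4 members for Control day (36.1%) and in 4 for Sham day (36.2%). The median log2 ratio of Untreated to Control day was 0.55 for the members and -0.06 for all genes, and that of Untreated to Sham day was 0.32 and -0.06. Member 5 had the largest ratio to Control day, at 3.39, with 0.131, 0.0646 and 0 CPM in the Control day libraries. Member 17 followed at 2.52, member 11 at 2.26, member 18 at 2.09 and member 4 at 2.06. Member 1 went the other way, with a ratio of -1.16: its Control day libraries held 14, 4 and 26 read-pairs against 1, 2 and 6 in Untreated culture. The culture and in vivo experiments differed in age, in sex and in sequencing pool, which cannot be told apart from culture itself. The rule used the Untreated and Control libraries, so these counts and ratios are a description. Only the Sham day levels are independent of the choice.

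**Figure D3:**
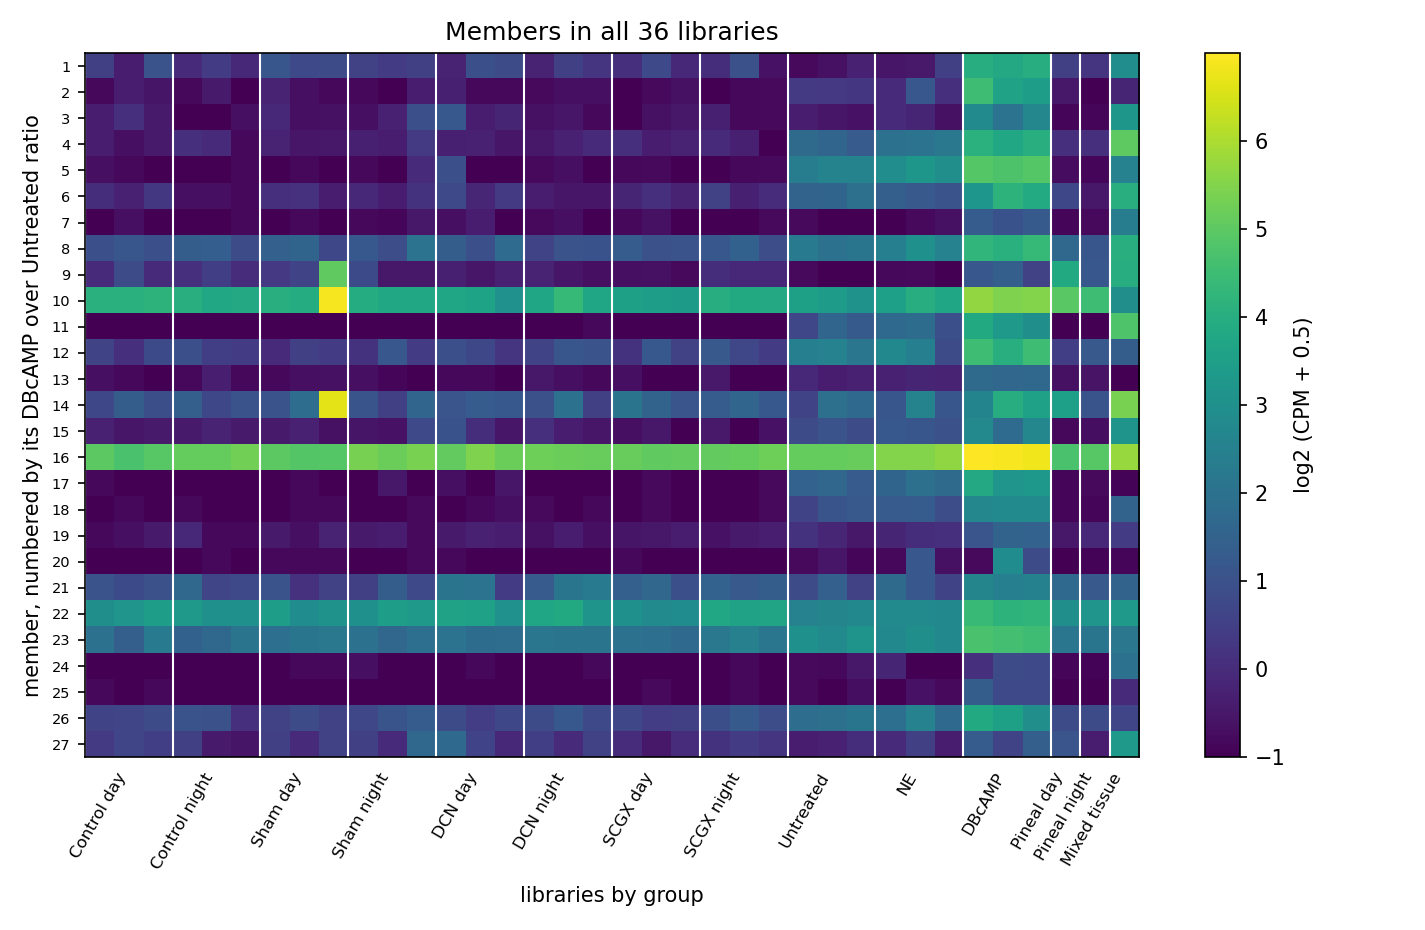
Heat map of log2 (CPM + 0.5) for the 27 members (rows, by falling DBcAMP ratio) in all 36 libraries (columns, by group). The DBcAMP columns are brighter than the in vivo columns for most members, Sham day replicate 3 stands out for members 9, 10 and 14, and member 11 is dark in all in vivo and pineal columns but not in the mixed tissue.

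At night, when NE is released in vivo, most members lay below the levels found with DBcAMP. Every DBcAMP library was above every Control night library in 27 of 27 members (30.8% of the genes) and above every Sham night library in 25 (24.7%). The rule chose the members for their DBcAMP level and for a small Control night/day ratio, so nothing is read from the first count. Of the second, only the Sham libraries were not used by the rule. The second count left out members 9 and 27. Member 9 had 1.25 CPM in Sham night replicate 1 against 0.987 CPM in DBcAMP replicate 3. Member 27 had 15, 9 and 39 read-pairs in the Sham night libraries and 25, 14 and 29 with DBcAMP, and was high in Sham night replicate 3, which stood apart. In Control glands, which the rule used, the night to day log2 ratio of the members ranged from -0.91 to 0.42. Its median was -0.0044, against -0.19 over the 13257 genes.

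The night/day difference was then tested in the groups that the rule did not use, with edgeR's quasi-likelihood test across all genes. The rule had already left out genes with a large night/day ratio in Control glands, which kept their neural input as Sham glands did. A low count of members in Sham is therefore partly set by the choice, and nothing is read from it beside the share of all genes. The members' counts passed the low-count limit (normalized counts averaging 5 or more over the libraries compared) in 12 to 16 of the 27, depending on the comparison. In Sham glands, 1 of the 16 members tested was higher at night and 0 were lower (of all genes tested, 20.7% changed, 9.46% being higher and 11.3% lower). This was member 16, with 31.0, 28.6 and 29.2 CPM at day and 40.7, 35.9 and 41.2 CPM at night. Its day and night libraries did not overlap, and its log2 fold change was 0.48 ± 0.09 (SE, n = 3 and 3; edgeR adjusted p = 0.0121). Without the 2 libraries that stood apart in this comparison the value was 0.54 (edgeR adjusted p = 0.0404). The call was lost without Sham day replicate 2 (0 members). In Control glands, which the rule used, the night libraries of member 16 were also above its day libraries, with a log2 ratio of 0.20. Its log2 fold change was -0.02 ± 0.10 in DCN and 0.03 ± 0.07 in SCGX glands (SE, n = 3 and 3; edgeR adjusted p = 0.974 and 0.870). Whether its night/day difference differs between groups was not tested.

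Members 9 and 14 had large fitted decreases at night in Sham glands that rested on a single library and did not pass the test. Member 9 had 12, 16 and 468 read-pairs in the Sham day libraries and 20, 4 and 3 at night, with a log2 fold change of -4.22 ± 1.63 (SE, n = 3 and 3; edgeR adjusted p = 0.122). Member 14 had 25, 47 and 1468 at day and 26, 17 and 36 at night, with -4.30 ± 1.60 (SE, n = 3 and 3; edgeR adjusted p = 0.110). Member 10, with 258, 224 and 1719 read-pairs at day, shared the pattern. In the single pineal libraries, mid-day against midnight read-pairs were 408 and 64 for member 9, 868 and 821 for member 10 and 312 and 60 for member 14. Scaled to the library totals, member 10 was at 30.1 and 22.3 CPM. The larger mid-day excess of members 9 and 14 was not particular to them, since member 6 had 34 against 8 read-pairs and member 27 had 48 against 10. In Control glands, which the rule used, the night/day log2 ratios of members 9, 10 and 14 were 0.12, -0.25 and 0.15. Without Sham day replicate 3 the Sham night/day values were -0.61 ± 0.89 for member 9, -0.11 ± 0.15 for member 10 and -0.42 ± 0.54 for member 14 (SE). Their edgeR adjusted p were 0.697, 0.681 and 0.662. What raised members 9, 10 and 14 in Sham day replicate 3 was not tested.

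In DCN glands, 0 of 14 members tested differed between night and day with edgeR and 0 with DESeq2, and 2 had an unadjusted p under 0.05 with edgeR (0% of all genes passed the adjusted threshold). Of all 15924 genes tested, 9% had such an unadjusted p with edgeR, and 105 passed the adjusted threshold with DESeq2. The 2 members with an unadjusted p under 0.05 were 3 and 6, with fitted log2 fold changes of -2.53 and -1.76. For member 3, DCN day replicate 1 held 29 read-pairs and the other day libraries 4 and 6, against 2, 3 and 1 at night. For member 6 the day libraries held 19, 6 and 12 and the night libraries 4, 3 and 3 read-pairs, so that the groups did not overlap. Without DCN day replicate 1, member 3 was below the low-count limit and was not tested, and the value of member 6 was -1.35 (edgeR adjusted p = 0.721).

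In SCGX glands, 1 of 12 members tested was higher at night and 0 were lower (of all genes tested, 1.79% changed, 1.05% being higher and 0.74% lower). Member 22 had 7.56, 6.56 and 6.96 CPM at day and 12.9, 11.6 and 12.4 CPM at night. The groups were well separated, with a log2 fold change of 0.77 ± 0.12 (SE, n = 3 and 3; edgeR adjusted p = 0.0167). The call was lost without SCGX day replicate 1 or SCGX day replicate 3 (0 members). The same member showed 0.18 ± 0.22 in Sham glands (SE, n = 3 and 3; edgeR adjusted p = 0.612), with 10.5, 6.95 and 8.09 CPM at day and 7.64, 10.5 and 9.43 CPM at night. Whether its night/day difference differs between SCGX and Sham was not tested.

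**Figure D4:**
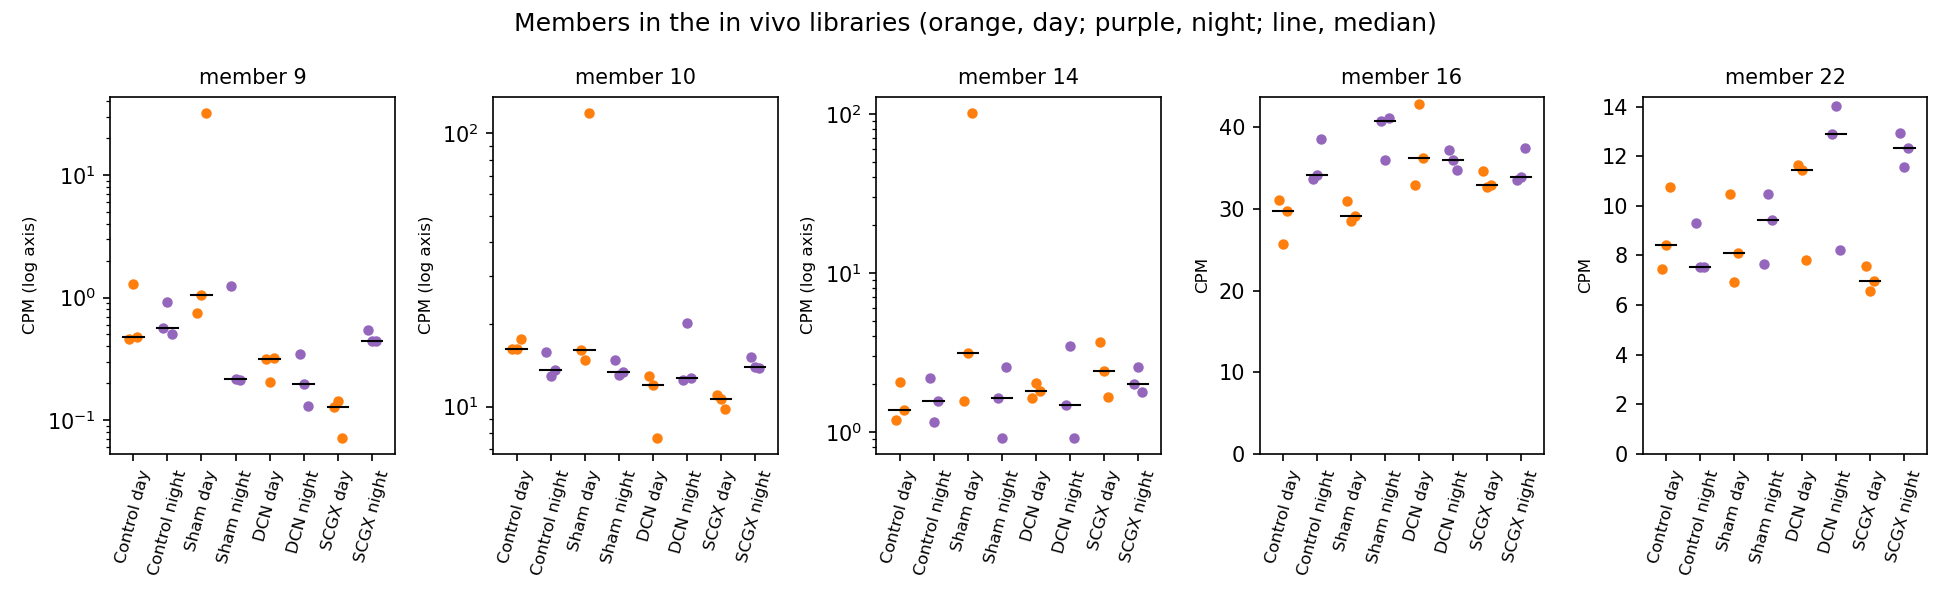
CPM of members 9, 10, 14, 16 and 22 in the 24 in vivo libraries, 1 point per library (orange, day; purple, night; line, group median); log axis for members 9, 10 and 14, linear axis from 0 for members 16 and 22. Sham day replicate 3 lies at 32.4, 119 and 101 CPM in the first 3 panels. The night points of member 16 lie above its day points in Control and in Sham, and those of member 22 in SCGX.

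The surgical groups were compared with Sham at each time, which asks whether the loss of the neural input moves the members. The night/day limit in Control bears on the midnight counts as well, so nothing is read from them beside the shares of all genes. At mid-day, 0 of 15 members tested differed between DCN and Sham with edgeR and 0 with DESeq2, and 4 had an unadjusted p under 0.05 with edgeR. Of all 16074 genes tested, 2.15% changed with edgeR and 1373 genes with DESeq2, and 22.1% had an unadjusted p under 0.05 with edgeR. At midnight, 0 of 16 differed with edgeR and 0 with DESeq2, and 2 had an unadjusted p under 0.05. Among all genes these shares were 17.2% changed and 32.2% unadjusted with edgeR, and 3154 of 15935 genes changed with DESeq2. In SCGX glands, 0 of 13 members differed from Sham at mid-day with edgeR and 0 with DESeq2, and 5 had an unadjusted p under 0.05. Among all genes, 11.4% changed and 28.1% had such an unadjusted p with edgeR, and 2092 of 15750 changed with DESeq2. Among all genes at midnight, 20.9% changed and 34.2% had such an unadjusted p with edgeR, and 3429 of 15874 changed with DESeq2. Of the members, 0 of 15 differed with edgeR and 1 with DESeq2, and 1 had an unadjusted p under 0.05. The member was member 16, with 33.6, 34.0 and 37.4 CPM in SCGX night and 40.7, 35.9 and 41.2 CPM in Sham night libraries and a log2 fold change of -0.27 ± 0.08 (SE, n = 3 and 3; edgeR adjusted p = 0.0646; DESeq2 adjusted p = 0.0353). The libraries of the 2 groups overlapped in level. For DCN night against Sham night the value was similar in size, at -0.24 ± 0.08 (SE, n = 3 and 3; edgeR adjusted p = 0.0953). Without Sham night replicate 3, the SCGX value was -0.34 (edgeR adjusted p = 0.0435). It was the only call among 13 members in that fit, where 3957 of 15596 genes were called. For DCN, 0 of 12 members and 2710 of 15665 genes were called without that library.

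Members 9, 10 and 14 were among those with an unadjusted p under 0.05 in both mid-day comparisons, and Sham day replicate 3 entered both. In SCGX day libraries member 9 had 2, 2 and 1 read-pairs and member 10 had 174, 149 and 137. Sham day replicates 1 and 2 held 12 and 16 read-pairs of member 9 and 258 and 224 of member 10. Without Sham day replicate 3, 2024 of all 15651 genes tested changed between SCGX and Sham at mid-day. A similar share of members did, 2 of 14 tested, both lower in SCGX. These were member 9, with a log2 fold change of -2.88 (edgeR adjusted p = 0.0130), and member 10, with -0.54 (edgeR adjusted p = 0.0267). With all 3 Sham day libraries the values were -6.50 ± 1.87 (SE; edgeR adjusted p = 0.0629) and -2.21 ± 0.77 (SE; edgeR adjusted p = 0.108). Both differences and their errors were larger with the library that stood apart. Member 14 changed sign, from -3.72 with it (edgeR adjusted p = 0.139) to 0.17 without it (edgeR adjusted p = 0.818). For DCN against Sham at mid-day, the values of members 9, 10 and 14 were -5.34, -2.25 and -4.32 with all libraries and -1.80, -0.72 and -0.34 without Sham day replicate 3 and DCN day replicate 1, and none of the 3 passed the edgeR test either way.

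Sham night replicate 3 and DCN day replicate 1 were high for members 3, 15 and 27. Member 3 had 20 and 29 read-pairs in these libraries and 0 to 9 in the other 22 in vivo libraries. Member 15 had 17 and 24, against 0 to 8, and member 27 had 39 and 45, against 3 to 17. These members were also among those higher in the mixed tissue than in the pineal libraries, with 344, 317 and 371 read-pairs there. The 2 traits did not go together throughout. Of the 12 members over 4-fold higher in the mixed tissue, members 4, 5, 6 and 8 also had their highest in vivo level in 1 of these 2 libraries. Members 1, 7, 11, 18 and 24 had it in other libraries. Members 20 and 26, not over 4-fold higher in the mixed tissue, were highest in Sham night replicate 3. What raised members in these libraries was not tested.

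The mixed tissue held many of the members at higher levels than the pineal gland. With 1 library each there is no replicate check and no test. The 13257 genes are those at or above 1 CPM with DBcAMP, whereas the members were low in Untreated culture. The shares below are therefore a description. With 0.5 CPM added to each value, 12 of 27 members were over 4-fold higher in the mixed tissue than in both pineal libraries. The same held for 6.13% of the 13257 genes and for 15 of the 97 genes at or above the NE limit. On the same scale, 0 of the 27 were over 4-fold higher in either pineal library, against 5.41% of the genes. The median log2 ratio of the mid-day pineal library to the mixed tissue was -1.07 for the members and 0.11 for all genes, and that of the midnight library was -2.41 and -0.05. Member 11 had 1052 read-pairs in the mixed tissue and 0 in both pineal libraries, and member 4 had 1236 there against 16 at mid-day and 21 at midnight. Member 10 was the member with the highest pineal ratio, at 1.98 at mid-day, just under the 4-fold limit of 2 on this log2 scale. Its levels were 30.1 CPM in the mid-day pineal library and 7.23 CPM in the mixed tissue, a difference past that limit when no CPM is added. Members 13 and 17 were low in both, with 0 and 1 read-pairs in the mixed tissue, 4 and 1 in the mid-day and 6 and 3 in the midnight pineal library. The 11 members under 1 CPM throughout in vivo fell into 5 that were over 4-fold higher in the mixed tissue and 6 that were not.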

How the data were processed

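The authors aligned strand-specific read-pairs with STAR 2.3.1y to rn4 (Ensembl annotation, release 69) and counted read-pairs per gene with QoRTs. They deposited raw counts and RPKM values for each library, both used here. CPM was each count times 1e+06 over the library total. Groups and replicates came from the labels. The members, lists and comparisons were chosen with earlier results of these data known. Tests used the counts with edgeR 4.0.16 (R 4.3.3; TMM, glmQLFit, glmQLFTest, Benjamini-Hochberg, adjusted p under 0.05) on the 6 libraries compared, for genes whose normalized counts averaged 5 or more, and the fit was tested on simulated data. DESeq2 1.42.0 was an alternative. All members were to be named; 0 identifiers could be paired with a symbol in the gene table used here (GRCr8), so at most 2 identifiers are printed and gene names, pathway lists, cell type markers and promoters were not analysed here. Other alternatives covered scaling, the low-count limit, a replicate block, 1 model over the in vivo libraries, the pseudocount and leaving out libraries. Ratios with 0.5 CPM added understate changes of low genes.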

Additional observations from a re-analysis of the deposited data

Results flagged for a closer look

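Member 10 had night/day ratios of opposite sign in Control and SCGX glands. In Control it had 16.2, 16.3 and 17.6 CPM at day and 15.9, 12.96 and 13.7 CPM at night, every night library below every day library, as in 40% of the 13257 genes. In SCGX it had 11.1, 10.6 and 9.82 CPM at day and 15.2, 13.97 and 13.8 CPM at night, every night library above every day library, as in 16.2% of the genes. The log2 ratio of medians was -0.25 in Control and 0.38 in SCGX, which is 0.63 apart; the median over the 13257 genes in Control was -0.19, close to the value of the member. The difference between the groups was not tested, and the SCGX night/day difference alone did not pass (log2 fold change 0.41 ± 0.10 (SE, n = 3 and 3), edgeR adjusted p = 0.0763).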

How the results depend on the processing

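Under the other settings of the rule (means, pseudocounts, 2 scalings), between 20 and 33 genes were selected, 17 to 24 of them members, and between 22 and 33 with 1 library left out. TMM scaling, which selected 33, moved the median of all genes by 0.14 for DBcAMP over Untreated and 0.20 for night over day in Control. With a pseudocount of 0.1 the median ratio of Untreated to Sham day was 0.72 and that of the mid-day pineal library to the mixed tissue -1.94. With 1 model over all in vivo libraries, 4 of 16 members tested changed between night and day in Sham. Members 9, 10 and 14 were lower and member 16 was higher. Of all genes, 5541 of 16043 changed. In SCGX, 0 of 12 members and 25 of 15545 genes changed. That model gave 3 of 15 members (members 9, 10 and 14, lower) for DCN against Sham at mid-day and 1 of 16 at midnight. Of all genes, 1643 of 16074 and 4973 of 15935 changed there. SCGX against Sham gave 3 of 13 at mid-day and 1 of 15 at midnight, with 1781 of 15750 and 4678 of 15874 genes. The cause was not tested. At adjusted p under 0.001, 0 members remained called in the night/day comparisons of Sham and SCGX (368 of 16043 and 3 of 15545 genes). With no low-count limit, SCGX against Sham at mid-day gave 1 member of 26 (1787 of 21609 genes). At midnight, DESeq2 and median-of-ratios scaling each gave 1 of 15 (3429 and 2805 of 15874 genes). Replicate numbers did not pair the samples (correlations of same-numbered deviations from -0.21 to 0.13), and 0 to 2 of the 6 samples of a comparison correlated best with their own number. With the replicate block, 1 member (member 9) differed between SCGX and Sham at mid-day, and every other count of members was as without it. Of all genes, 1352 of 15750 changed in that comparison with the block. Leaving out 1 library at a time gave 0 to 1 members in the night/day comparison of Sham, 0 to 1 in that of SCGX and 0 in that of DCN. It gave 0 in both comparisons of DCN with Sham, 0 to 3 for SCGX against Sham at mid-day and 0 to 1 at midnight. The counts of 3, 1 and 2 at mid-day came without Sham day replicates 1, 2 and 3. That of 1 at midnight (member 16) came without Sham night replicate 3. Of all genes, 1905 of 15726, 1149 of 15730 and 2024 of 15651 changed in these fits at mid-day, and 3957 of 15596 at midnight. The median ratio of Untreated to Sham day was 0.19 to 0.44 with 1 library left out. Promoter motifs and tests of pathway genes in culture were not run, since no gene names could be paired. Depth limited members with few read-pairs, which were not tested in vivo.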
